A study of Mus musculus with 4 samples.

Results

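A set of 10 genes that mark fibroblasts and the mural cells of blood vessels was followed through cultures of mouse microglia: Pdgfra, Pdgfrb, Twist1, Prrx1, Prrx2, Cdh11, Thy1, Acta2, Tagln and Lhfp. They were chosen by name, with earlier results of these data known, as identity genes of stromal cells that do not encode matrix proteins. All 10 were found among the 54532 Ensembl genes listed in both count tables. All 10 also passed the filter on low counts, at least 10 counts summed over the libraries, which left 13811 protein-coding genes for the tests. Primary microglia were grown from the brains of newborn male CD1 mice as mixed glial cultures supplemented with GM-CSF, and for RNA the astrocytic layer was taken off with trypsin, leaving the microglia attached. After isolation they were held in serum-free medium with IL-34, TGFβ2, GM-CSF and cholesterol, and every group shared these conditions. EGCG (epigallocatechin gallate, the main catechin of green tea) was given at 1 µM for 24 h, against the DMSO vehicle over the same 24 h. Poly-A RNA was sequenced from 2 libraries per group, Vehicle replicates 1 and 2 and EGCG replicates 1 and 2, described as independent biological replicates.

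Fibroblasts and mural cells are mesenchymal cells that build and support the matrix and the walls of vessels, and in the brain they lie in the meninges and along vessels. Both answer to platelet-derived growth factors through the receptor tyrosine kinases PDGFRα and PDGFRβ, and fibroblasts that become contractile switch on smooth muscle actin and its partners. Microglia arise from the yolk sac and do not belong to this lineage, so these genes are commonly read in glial cultures as a sign of other cells. Several of the 10 also mark cells outside the stroma: Pdgfra is known from oligodendrocyte precursor cells and Thy1 from neurons.

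The libraries held 33.8 M counts on genes in Vehicle replicate 1, 34.3 M in EGCG replicate 1, 36.3 M in Vehicle replicate 2 and 54.9 M in EGCG replicate 2. Values per library are given as CPM (counts per M library counts, with library sizes corrected by TMM factors), and a count of 3, taken as the smallest level the depth can show, stood for 0.0546 to 0.0889 CPM before that scaling. No library was a copy of another, since even those closest to each other differed beyond counting noise (chi-square of 9.81 per gene). Intervals and this floor cover counting error only. Microglia genes dominated every library. Csf1r, the receptor that microglia need to survive, had 39199, 40504, 86974 and 132564 counts in the order Vehicle replicate 1, EGCG replicate 1, Vehicle replicate 2 and EGCG replicate 2, which is the order used for values per library throughout. The 10 stromal genes were scarce beside it. Together they held 2046, 217, 657 and 1261 counts, or 62.4, 6.77, 17.9 and 22.9 CPM.

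In replicate 1, nearly all of the stromal signal of the vehicle library was missing from the EGCG library, and in replicate 2 it was not. Summed over the 10 genes, EGCG replicate 1 was 9.21-fold lower than Vehicle replicate 1, whereas EGCG replicate 2 was 1.28-fold higher than Vehicle replicate 2. The vehicle libraries themselves differed 3.48-fold, with replicate 1 higher. Without Pdgfra, the one gene that was not lower in EGCG replicate 1, EGCG replicate 1 was 24.7-fold lower than its vehicle library, and EGCG replicate 2 was 1.26-fold higher than its own. In bulk RNA, fewer stromal cells and less of these transcripts per stromal cell cannot be told apart. With 1 library for each treatment and replicate number, neither can be told apart from how a single culture was prepared.

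**Figure D1:**
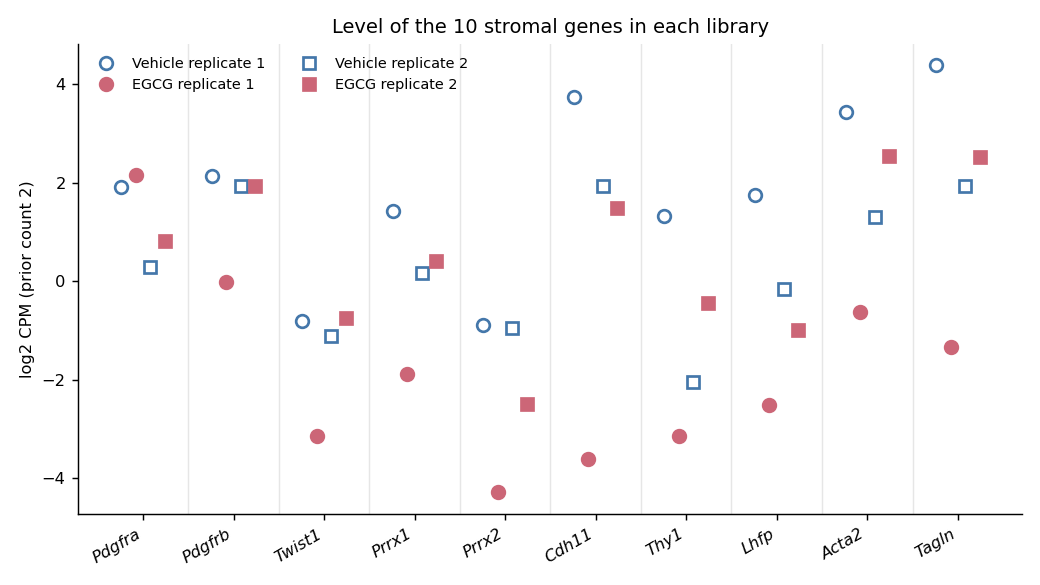
Level of each of the 10 stromal genes (log2 CPM with a prior count of 2, vertical axis) in the 4 libraries, with open symbols for vehicle, filled symbols for EGCG, circles for replicate 1 and squares for replicate 2. EGCG replicate 1 is the lowest point for 9 genes and Vehicle replicate 1 the highest for 8, while Pdgfra is highest in EGCG replicate 1.

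Because 9 of the 10 genes were lower in EGCG replicate 1 than in its vehicle library and Pdgfra was not, promoter sequences are shown for 3 of the 9 and for Pdgfra. They are the 250 bases before the RefSeq transcript start on GRCm38.p6, read 5′ to 3′ on the strand of the gene, and RefSeq promoters were matched for 6 of the 10 genes. Acta2 is at chr19:34255374-34255623 (minus strand), Twist1 at chr12:33957421-33957670 (plus), Prrx1 at chr1:163313651-163313900 (minus) and Pdgfra at chr5:75152001-75152250 (plus). Capitals mark letters that matched a motif searched on both strands: the CArG box with at most 1 mismatch in its core, the TATA box TATAAA, the CCAAT box and the E-box core CANNTG.
Acta2: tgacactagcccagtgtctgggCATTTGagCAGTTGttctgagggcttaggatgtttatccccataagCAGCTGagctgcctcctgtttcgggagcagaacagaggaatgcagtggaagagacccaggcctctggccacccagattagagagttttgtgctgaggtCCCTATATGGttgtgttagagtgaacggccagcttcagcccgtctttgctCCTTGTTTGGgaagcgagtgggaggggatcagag
Twist1: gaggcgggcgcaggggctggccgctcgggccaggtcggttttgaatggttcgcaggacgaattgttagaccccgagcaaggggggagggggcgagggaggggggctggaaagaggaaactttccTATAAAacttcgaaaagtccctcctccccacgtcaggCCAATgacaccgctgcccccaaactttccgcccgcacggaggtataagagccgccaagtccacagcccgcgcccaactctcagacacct
Prrx1: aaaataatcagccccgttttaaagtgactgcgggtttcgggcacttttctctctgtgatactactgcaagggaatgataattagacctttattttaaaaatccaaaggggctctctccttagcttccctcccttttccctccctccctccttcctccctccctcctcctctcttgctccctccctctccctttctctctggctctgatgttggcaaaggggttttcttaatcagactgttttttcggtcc
Pdgfra: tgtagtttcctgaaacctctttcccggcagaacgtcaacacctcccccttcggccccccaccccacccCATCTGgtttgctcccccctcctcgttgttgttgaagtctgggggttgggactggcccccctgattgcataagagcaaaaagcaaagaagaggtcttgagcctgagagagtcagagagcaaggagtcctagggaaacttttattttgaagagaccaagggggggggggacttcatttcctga
Acta2 held a CArG-like match at 2 places, 84 and 34 bases before the start, and CANNTG at 3 places. At most 1 core mismatch was met in 8.59% of the 32851 promoters of this length, and at 2 or more places in 0.67%. Twist1 held TATAAA 126 bases before the start, a motif found in 12.4% of promoters, and CCAAT 89 bases before it, found in 33.8%. Pdgfra held a single CANNTG, which 66.2% of all promoters have, and Prrx1 held none of these motifs. No motif was found in both Acta2 and Twist1, which were both lower in EGCG replicate 1. Prrx2 and Lhfp, also lower there and matched to a promoter that is not shown, held none of these motifs either. RefSeq starts did not always match the gene spans given below. The Prrx2 window, chr2:30845117-30845366, lies inside the span of its gene, 30834972 to 30881251. The Prrx1 window overlaps the end of its gene at 163313710. A missing motif holds for these windows only. A match describes letters only and is not a measured binding site.

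The PDGF receptors behaved differently from each other. Pdgfra (ENSMUSG00000029231, GRCm38 chromosome 5, 75152292 to 75198215, plus strand, 23 exons) encodes PDGFRα, the receptor of fibroblasts and oligodendrocyte precursors that binds PDGF-A. It had 122, 141, 43 and 95 counts, or 3.72, 4.40, 1.17 and 1.72 CPM. Both replicate 1 libraries were above both replicate 2 libraries, as for 37.4% of all genes tested, and in each replicate the EGCG library was the higher one. The ratio of EGCG to vehicle was 1.18 in replicate 1, with a 95% exact counting interval from 0.922 to 1.52 that includes no difference. It was 1.47 (1.01 to 2.16) in replicate 2. The CPM was 2.45 ± 1.80 in vehicle and 3.06 ± 1.89 in EGCG (SD, n = 2 libraries each).

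Pdgfrb (ENSMUSG00000024620, chromosome 18, 61045150 to 61085061, plus strand) encodes PDGFRβ, the receptor through which PDGF-B recruits mural cells. Its counts were 142, 30, 139 and 209, or 4.33, 0.936, 3.79 and 3.79 CPM. The other libraries stood close together and EGCG replicate 1 stood apart below them. There it was 4.62-fold lower than in Vehicle replicate 1 (95% interval 3.10 to 7.10), the smallest of the 9 folds with this direction in replicate 1. In replicate 2 the ratio was 0.999 (0.802 to 1.25). The 2 vehicle libraries differed by only -0.19 on the log2 scale, so Vehicle replicate 1 was not itself high for this gene.

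Transcription factors of mesenchymal cells had few counts, Prrx2 and Twist1 the fewest of the 10 genes. Prrx1 (ENSMUSG00000026586, chromosome 1, 163245119 to 163313710, minus strand) encodes a homeobox factor of limb and craniofacial mesenchyme and of fibroblasts. It had 86, 7, 39 and 71 counts, or 2.62, 0.218, 1.06 and 1.29 CPM. EGCG replicate 1 was again the lowest library, 12-fold below its vehicle library (5.58 to 30.7), and in replicate 2 the ratio of EGCG to vehicle was 1.21 (0.807 to 1.84).

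Its paralog Prrx2 (ENSMUSG00000039476, chromosome 2, 30834972 to 30881251, plus strand), a homeobox factor of the same kind, had 16, 0, 17 and 7 counts. The vehicle libraries were alike at 0.488 and 0.464 CPM, and both EGCG libraries were below both of them. Against the floor of 3 counts per library, Prrx2 was at least 5.21-fold lower in EGCG replicate 1, while the exact interval, which also holds the counting error of the vehicle library, allows a fold as low as 3.77. In replicate 2 the ratio was 0.274 (0.0959 to 0.694), the lowest of the 10 genes there, from 17 against 7 counts. Prrx2 had the smallest spread between the vehicle libraries, 0.476 ± 0.0169 CPM, against 0.0634 ± 0.0897 in EGCG (SD, n = 2 each).

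Twist1 (ENSMUSG00000035799, chromosome 12, 33957671 to 33959829, plus strand) encodes a basic helix-loop-helix factor of neural crest and mesenchyme. Its counts were 17, 2, 15 and 30, or 0.518, 0.0624, 0.409 and 0.544 CPM. In replicate 1 it was 8.30-fold lower in EGCG, but the few counts left an interval from 1.97 to 74.1. In replicate 2 the ratio was 1.33 (0.693 to 2.66), so a difference between those libraries was not detectable at this depth.

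Cdh11 and Thy1 encode proteins of the fibroblast surface. Cdh11 (ENSMUSG00000031673, chromosome 8, 102632095 to 102785642, minus strand) encodes cadherin 11, which joins mesenchymal cells to each other. It had 437, 1, 139 and 151 counts, or 13.3, 0.0312, 3.79 and 2.74 CPM. A single count was left in EGCG replicate 1, below the floor, against a number in each other library that the depth measured well. The fold between the replicate 1 libraries was 427 (95% interval 76.2 to 16890), and in replicate 2 the ratio was 0.722 (0.569 to 0.915). Parts of Cdh11 transcripts, 221 to 990 nucleotides long at 92.8% to 96.3% identity, recur in 8 other annotated genes, and how reads with several matches were counted is not given in the sources used here. The most abundant of these, 2610005L07Rik, had 411, 377, 801 and 1297 counts, so it did not share the near-absence of Cdh11 from EGCG replicate 1.

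Thy1 (ENSMUSG00000032011, chromosome 9, 44043384 to 44048579, plus strand) encodes the glycoprotein CD90 of fibroblasts, neurons and thymocytes. It had 81, 2, 7 and 38 counts, or 2.47, 0.0624, 0.191 and 0.689 CPM. Both the vehicle and the EGCG pairs were far apart, and in opposite directions. Thy1 was 39.5-fold lower in EGCG in replicate 1 (10.6 to 332.1) and had a ratio of 3.61 in replicate 2 (1.59 to 9.57), the highest of the 10 genes. It also gave the largest gap between the vehicle libraries, a log2 difference of -3.38 from replicate 1 to replicate 2.

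The contractile genes Tagln and Acta2 together held 1037, 30, 227 and 635 counts. Tagln (ENSMUSG00000032085, chromosome 9, 45929619 to 45936058, minus strand) encodes transgelin, an actin-binding protein of smooth muscle and activated fibroblasts. It had 684, 11, 138 and 316 counts, or 20.8, 0.343, 3.77 and 5.73 CPM. EGCG replicate 1 was 60.7-fold below Vehicle replicate 1 (33.7 to 122.2), and in replicate 2 EGCG was above vehicle at a ratio of 1.52 (1.24 to 1.87). On the opposite strand Tagln overlaps Pcsk7, with 1683, 1697, 1508 and 2136 counts, and the antisense gene Gm48529, with 148, 95, 73 and 158. The libraries were strand-specific, but whether the counting used strand is not given in the sources used here.

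Acta2 (ENSMUSG00000035783, chromosome 19, 34241090 to 34255336, minus strand) encodes α smooth muscle actin, the usual marker of myofibroblasts and mural cells. Its counts were 353, 19, 89 and 319, or 10.8, 0.593, 2.43 and 5.78 CPM. As for Tagln, the order of the libraries was Vehicle replicate 1, EGCG replicate 2, Vehicle replicate 2 and then EGCG replicate 1. Acta2 was 18.1-fold lower in EGCG in replicate 1 (11.4 to 30.5), and in replicate 2 it was higher at a ratio of 2.38 (1.88 to 3.05). The intervals of these ratios lie wholly on opposite sides of 1, as they also do for Tagln and Thy1. Actb, the cytoskeletal actin that nearly all cells express, had 57418, 63425, 92358 and 145221 counts and log2 differences between EGCG and vehicle of 0.18 and 0.06.

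Lhfp (ENSMUSG00000048332, chromosome 3, 53041528 to 53261679, plus strand) encodes a predicted membrane protein of the tetraspan kind named from a lipoma fusion. It had 108, 4, 31 and 25 counts, or 3.29, 0.125, 0.846 and 0.453 CPM. Both EGCG libraries were below both vehicle libraries, at 26.4-fold in replicate 1 (10.01 to 98.5) and at a ratio of 0.536 in replicate 2 (0.303 to 0.938).

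**Figure D2:**
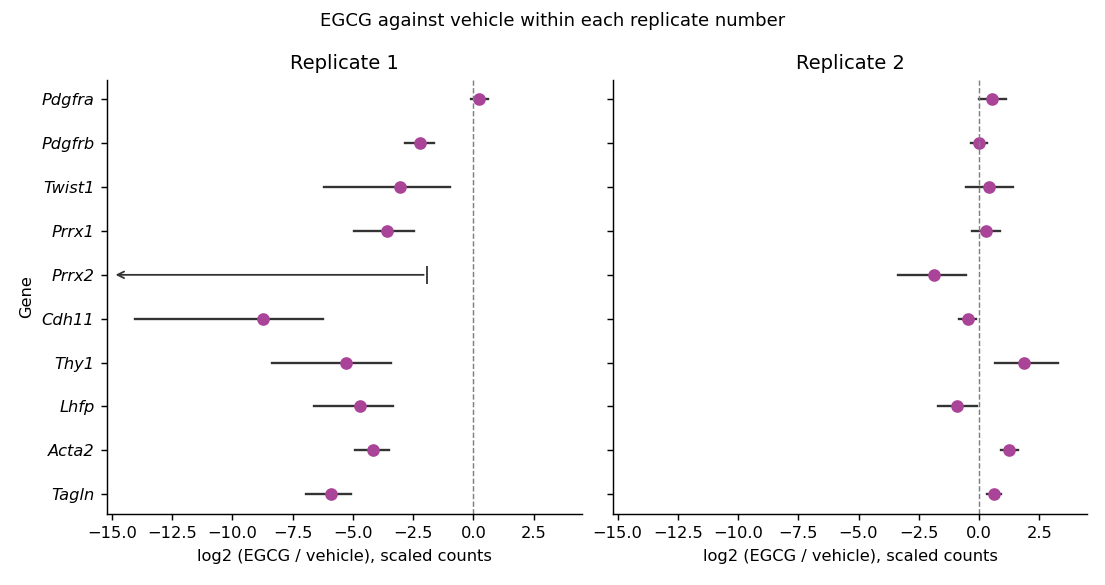
Ratio of EGCG to vehicle for each gene on a log2 scale (horizontal axis), in replicate 1 and in replicate 2, with points for the ratio of scaled counts and lines for its 95% exact counting interval. The arrow for Prrx2 in replicate 1 starts at the upper bound of its interval, since the EGCG library had 0 counts, and 9 genes lie to the left of 0 in replicate 1 whereas the genes fall on both sides in replicate 2.

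Read per transcript length, the contractile genes led in the mean of each group. Vehicle RPKM was 6.19 ± 6.08 for Tagln, 3.70 ± 3.31 for Acta2, 0.961 ± 0.757 for Cdh11 and 0.741 ± 0.0692 for Pdgfrb (SD, n = 2 each). Thy1 (0.444 ± 0.538), Lhfp (0.405 ± 0.339), Twist1 (0.285 ± 0.0472), Pdgfra (0.244 ± 0.180), Prrx2 (0.243 ± 0.00863) and Prrx1 (0.166 ± 0.0995) followed, in RPKM. The ranges of the 2 vehicle libraries overlapped for every pair of neighbours in this order. In EGCG the mean RPKM ran from 1.79 for Acta2 and 1.53 for Tagln through Pdgfrb, Pdgfra, Twist1, Cdh11, Thy1, Prrx1 and Lhfp to 0.0323 for Prrx2, with overlap between all neighbours as well. In EGCG replicate 1 alone, Pdgfra was highest at 0.439 RPKM, above Acta2 at 0.333 and Tagln at 0.173. Csf1r stood at 244.5 to 491.9 RPKM, far above all of them.

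The make-up of the stromal counts also differed between the libraries. Pdgfra took 5.96% of the counts on the 10 genes in Vehicle replicate 1 (95% Wilson interval 5.02 to 7.07), 6.54% in Vehicle replicate 2 (4.90 to 8.70) and 7.53% in EGCG replicate 2 (6.20 to 9.12). In EGCG replicate 1 it took 65.0% (58.4 to 71.0). Acta2 and Tagln together made up 50.7% and 50.4% in Vehicle replicate 1 and EGCG replicate 2, against 34.6% in Vehicle replicate 2 and 13.8% in EGCG replicate 1. Cdh11 was steady between the vehicle libraries, at 21.4% and 21.2%, and at 11.97% in EGCG replicate 2 and 0.461% in EGCG replicate 1. Pdgfrb took 6.94% in Vehicle replicate 1 and 13.8% to 21.2% in the others.

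**Figure D3:**
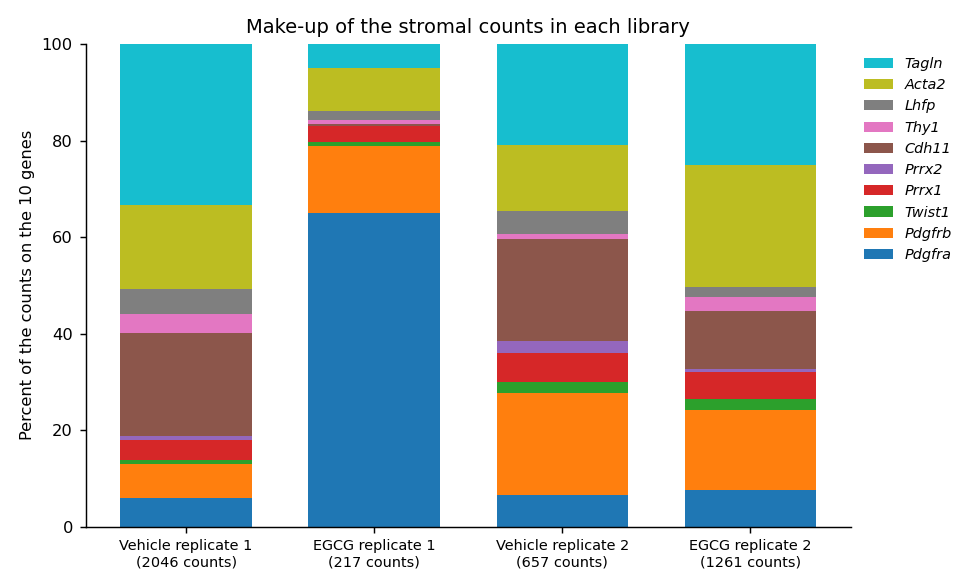
Percent of the counts on the 10 stromal genes (vertical axis) that each gene takes in each library, with the number of counts under each bar. Pdgfra fills 65.0% of the EGCG replicate 1 bar and 5.96% to 7.53% of the others, while Acta2 and Tagln fill 50.7% in Vehicle replicate 1.

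Whether EGCG changed these genes was tested over both replicates in a model that held treatment and no other term. By the quasi-likelihood test of edgeR, 0 of the 10 reached an unadjusted p under 0.05, where 0.116% of the 13811 genes did and 0.0869% did so as lower genes. The Benjamini-Hochberg adjusted p was 1.00 for each of them. The Wald test of DESeq2 gave 1 at the unadjusted threshold, Lhfp, against 0.145% of all genes as lower. A model with treatment only leaves the gap between replicate numbers in its error. With the replicate number added as a block, edgeR gave 2 at that threshold, Prrx2 and Lhfp, against 1.09% of all genes as lower. No adjusted p of the 10 genes was under 0.1 there. In the edgeR model with treatment only, the estimate was below 0 for 9 of the 10 genes, where 45.8% of all genes were, and below -1 for 7, where 3.54% were. Their median was -1.52 on the log2 scale, against 0.01 for all genes. For Lhfp the log2 fold change was -2.79 (standard error 1.06, edgeR, unadjusted p = 0.0587, adjusted p = 1.00) and was lower in both replicates. For Prrx2 it was -2.71 (standard error 1.34), and for Cdh11 -2.60 (1.77). Pdgfra had the single estimate above 0, at 0.32 (standard error 0.81). The standard errors of the others lay between 0.75 for Pdgfrb and 1.66 for Thy1.

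Read replicate by replicate, the 2 pairs of libraries gave different pictures. Shares over all genes are given for scale only, since the 10 genes were chosen with earlier results of these data known. In replicate 1, 9 of the 10 genes were lower in EGCG by more than 1 on the log2 scale, against 5.45% of all genes, and 7 by more than 3, against 1.44%. Higher by more than 1 were 0 of them, against 1.58%. Their median difference was -3.73 in log2 CPM, against 0.03 for all genes. In replicate 2, 1 gene was lower by more than 1 (Prrx2, where 1.48% of all genes were) and 2 were higher by more than 1 (Thy1 and Acta2, where 2.98% were), and the median difference was 0.32, against 0.00177. Pdgfrb, Prrx2, Cdh11 and Lhfp had both EGCG libraries below both vehicle libraries, 4 of 10 against 5.51% of all genes, and 0 had both above, against 6.39%. For Pdgfrb this rested on a log2 difference in replicate 2 of only -0.00142. Twist1, Prrx1, Thy1, Acta2 and Tagln were lower in EGCG in replicate 1 and higher in replicate 2, a pattern of 20.6% of all genes.

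**Figure D4:**
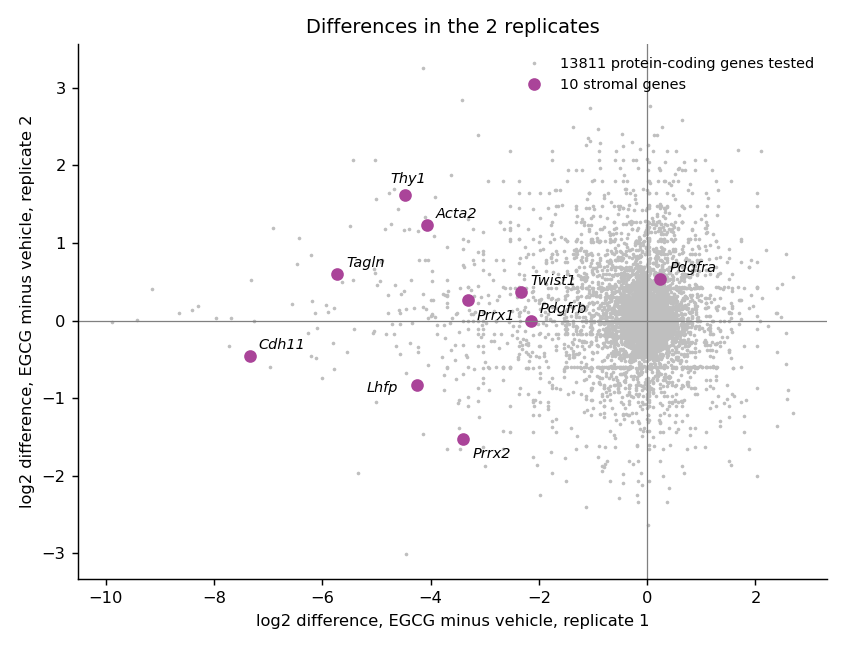
Log2 difference between EGCG and vehicle in replicate 1 (horizontal axis) and in replicate 2 (vertical axis), with a grey dot for each of the 13811 protein-coding genes tested and a labelled point for each stromal gene. Apart from Pdgfra, the stromal genes lie to the left, from -2.15 (Pdgfrb) to -7.34 (Cdh11) in replicate 1, and between -1.53 (Prrx2) and 1.61 (Thy1) in replicate 2.

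Single libraries decided these counts. Without EGCG replicate 2, 6 of the 10 genes were lower at an unadjusted edgeR p under 0.05 (Pdgfrb, Cdh11, Tagln, Acta2, Prrx2 and Lhfp), against 0.95% of the 13480 genes then tested. Without Vehicle replicate 2 there was 1 (Lhfp), against 0.388%, and without either replicate 1 library there were 0, with the background for lower genes at 0.0223% and 0.0369%. Leaving out a library leaves its group with a single one, which is then assumed to vary like the other group. The median estimate over the 10 genes was -0.43 without Vehicle replicate 1, -0.73 without EGCG replicate 1, -2.23 without Vehicle replicate 2 and -3.77 without EGCG replicate 2. The estimate for Cdh11 ranged from -7.97 to -1.43 and that for Prrx2 from -7.03 to -1.88, both lowest without EGCG replicate 2. No adjusted p was under 0.1 in any of these fits.

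The libraries of replicate 2 were compared with those of replicate 1 in a fit that kept the treatment term. Pdgfra was lower in replicate 2 by a log2 difference of -1.50, with a standard error of 0.23 (edgeR, adjusted p = 0.00508), in 2 of 2 pairs. It was the only one of the 10 genes at an adjusted p under 0.1, where 53.5% of all genes were. This p measures the spread between the libraries of one replicate number. The other 9 had adjusted p between 0.262 and 0.982 and estimates between -0.65 (Thy1) and 1.03 (Twist1), since the vehicle and the EGCG libraries differed in opposite directions. From replicate 1 to replicate 2, all 10 genes were lower among the vehicle libraries, with a median of -1.71 in log2 CPM against 0.00358 for all genes. Among the EGCG libraries 9 were higher, with a median of 2.35 against 0.01.

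By more than 1 on the log2 scale, 7 genes were lower in Vehicle replicate 2 than in Vehicle replicate 1, against 14.0% of all genes, and 9 were higher in EGCG replicate 2 than in EGCG replicate 1, against 8.1%. The highest CPM was in Vehicle replicate 1 for 8 of the 10 genes, against 22.1% of all genes, and the lowest was in EGCG replicate 1 for 9, against 22.0%. Pdgfrb, Prrx2 and Twist1 differed least between the vehicle libraries, at log2 differences of -0.19, -0.07 and -0.31. Without Vehicle replicate 1, and without a treatment term, all 10 genes differed between the replicate numbers at an unadjusted edgeR p under 0.05, 9 of them higher in replicate 2 against 28.0% of genes and Pdgfra lower against 27.2%. Without EGCG replicate 1, 7 were lower in replicate 2 against 26.7%.

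Other genes of the stroma were read from lists of markers beside the 10. Of 22 other fibroblast genes, most of them encoding matrix proteins, 21 were tested, and 18 of these were lower by more than 1 in EGCG replicate 1, with a median difference of -4.49, against a median of 0.09 in replicate 2. None had an unadjusted p under 0.05 in the edgeR test of EGCG against vehicle. Col3a1, a fibrillar collagen, had 4417, 6, 2189 and 4376 counts. Postn, the matricellular protein periostin and the most abundant of the list, had 8301, 8133, 6279 and 9104 counts, so it did not fall away in EGCG replicate 1. The summed CPM of the list was 855.9, 287.6, 397.4 and 415.1. Postn alone gave 253.0, 253.8, 171.3 and 165.0 of it, so most of the sum in EGCG replicate 1 was Postn.

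Of 15 other mesenchymal factors 13 were tested, and 9 were lower by more than 1 in EGCG replicate 1, with medians of -2.02 in replicate 1 and 0.09 in replicate 2. Tbx15, a T-box factor of mesenchyme, had 120, 3, 13 and 17 counts, and Zeb1, a zinc finger factor also found outside the stroma, had 260, 190, 714 and 1152. The log2 differences of the 13 in replicate 1 ran from -5.03 for Zic1, with 53, 0, 15 and 36 counts, to 0 for Meox1, which had 0, 0, 12 and 16. Snai2, at 21, 18, 2 and 20 counts, differed by only -0.17 there and by 1.97 in replicate 2. None of the 13 passed the unadjusted threshold. Their summed CPM, over the 15, was 21.8, 7.87, 23.4 and 25.8, of which Zeb1 alone gave 7.92, 5.93, 19.5 and 20.9.

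Markers of pericytes, the mural cells of capillaries, gave a mixed picture, with several at or near 0 and others, such as Cspg4 and Mcam, well counted. Whether the cultures held pericytes was not tested. Of 11 other pericyte markers 5 were tested, and Kcnj8, Vtn and Higd1b had 0 counts in every library, while Rgs5 had a single count in Vehicle replicate 1. Cspg4, which encodes the proteoglycan NG2 of pericytes and oligodendrocyte precursors, had 2478, 2323, 1436 and 2222 counts, and Mcam had 248, 215, 68 and 88. All 5 tested were lower in EGCG replicate 1, 2 of them by more than 1 (Notch3, with 11, 0, 2 and 6 counts, and Abcc9, with 11, 3, 5 and 4), and the medians were -0.75 in replicate 1 and 0.04 in replicate 2. The summed CPM of the list was 84.1, 79.5, 41.2 and 42.1, most of it from Cspg4 (75.5 in Vehicle replicate 1). A count of 0 allows up to 0.0546 to 0.0889 CPM at these depths.

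Among 14 other contractile genes of smooth muscle, 9 were tested and 6 were lower by more than 1 in EGCG replicate 1, with medians of -2.11 in replicate 1 and 0.66 in replicate 2. Cald1, an actin regulator, had 794, 80, 407 and 648 counts, while Tpm1, a tropomyosin that many cell types use, had 4343, 4280, 2283 and 3452. Lmod1, Myocd and Pln, which mark mature smooth muscle, had 0 counts in all 4 libraries, and Des had 1 count in EGCG replicate 1 alone. None of the 9 had an unadjusted p under 0.05.

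Of the 4 ligand genes of the PDGF receptors, Pdgfb and Pdgfa were far more abundant than the receptors. Pdgfb, the ligand of both receptors, had 3250, 3684, 4122 and 6783 counts, or 23.8, 27.6, 27.0 and 29.6 RPKM. Pdgfa had 1869, 1658, 745 and 1347 counts, at 18.3, 16.6, 6.52 and 7.83 RPKM. Against them, the RPKM of Pdgfra was 0.117 to 0.439 and that of Pdgfrb 0.171 to 0.790. None of the 4 ligand genes passed the unadjusted threshold, and the median difference of the list was -0.12 in replicate 1 and 0.55 in replicate 2. Pdgfc, at 1.03, 0.957, 0.456 and 0.819 RPKM, was nearer to the level of the receptors. Pdgfd, counted 7, 0, 0 and 6 times, reached at most 0.0676 RPKM and was the 1 ligand gene lower by more than 1 in replicate 1.

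Markers of other brain cells were read in the same way. In the oligodendrocyte lineage, 7 of 8 markers were tested, 0 were lower by more than 1 in EGCG replicate 1, and the summed CPM was 109.7, 111.6, 112.0 and 111.8. Mbp, the myelin basic protein, had 2280, 2283, 2597 and 3855 counts and Cnp, a myelin enzyme, 946, 948, 1207 and 1852, while Sox10, which defines the lineage, had 0, 5, 2 and 7. Of 10 astrocyte markers 9 were tested and 4 were lower by more than 1 in EGCG replicate 1, with a summed CPM of 48.0, 41.4, 16.5 and 18.6. Fabp7 gave 822, 785, 79 and 177 counts of this sum and Aldh1l1 339, 383, 330 and 506. The 4 lower genes were Gja1 (160, 1, 66 and 107 counts), Aqp4 (20, 0, 5 and 12), Sox9 (12, 2, 4 and 12) and Gfap (12, 2, 22 and 47), and these 4 astrocyte markers were, like the stromal genes, lowest in EGCG replicate 1. The median difference of the list was -0.47 in replicate 1 and 0.47 in replicate 2. The part of these cells in the result was not tested.

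Neuronal and endothelial markers were mostly low. Of 8 neuronal markers 5 were tested and 3 were lower by more than 1 in EGCG replicate 1. Stmn2, a regulator of microtubules in growing axons, had 10, 1, 5 and 1 counts and was the 1 gene of all these lists below an unadjusted p of 0.05. Its log2 fold change was -3.06 (standard error 1.02, edgeR, unadjusted p = 0.0415, adjusted p = 1.00). Snap25, a protein of synaptic membrane fusion, had 566, 524, 19 and 36 counts and Rbfox3, the neuronal nuclear antigen NeuN, 4, 8, 6 and 10. Of 8 endothelial markers 4 were tested and 1 was lower by more than 1. Flt1 had 5740, 5601, 1955 and 3581 counts and Pecam1 2, 3, 580 and 741, both following the replicate number. For the 10 microglia markers, the summed CPM was 6505, 7182, 9036 and 8876, and 0 were lower by more than 1 in EGCG replicate 1.

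**Figure D5:**
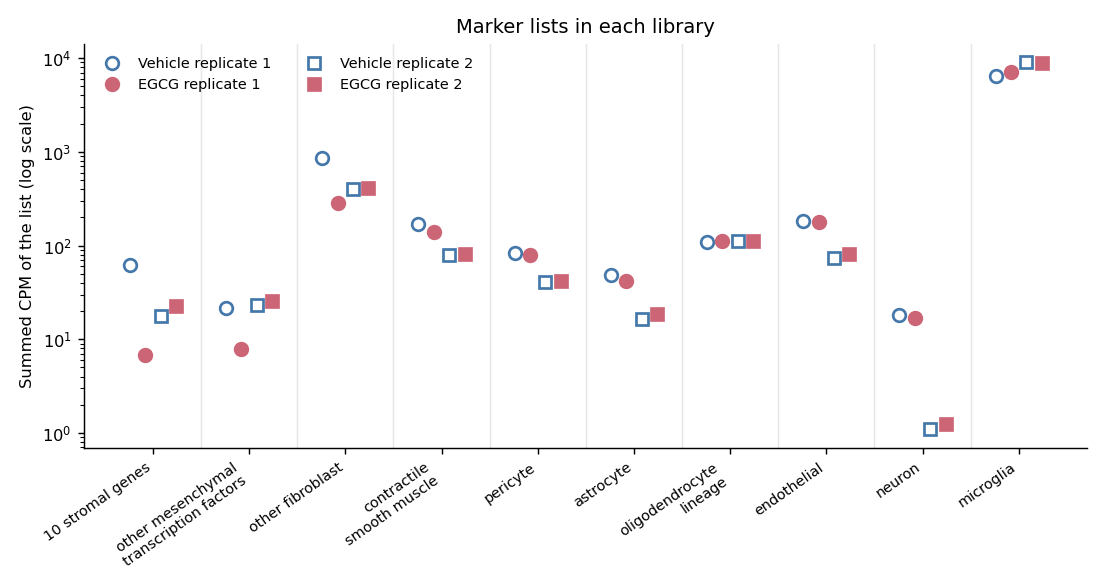
Summed CPM of each list of marker genes (vertical axis, log scale) in the 4 libraries, with open symbols for vehicle, filled symbols for EGCG, circles for replicate 1 and squares for replicate 2. The 10 stromal genes (62.4 to 6.77 CPM), the other mesenchymal transcription factors (21.8 to 7.87) and the other fibroblast genes (855.9 to 287.6) are lower in EGCG replicate 1 than in Vehicle replicate 1. Oligodendrocyte and microglia markers differ little between those libraries. In EGCG replicate 1, Zeb1 alone gives 5.93 of the 7.87 and Postn 253.8 of the 287.6.

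Close relatives of the 10 genes were read in the same way, which does not show how reads were divided between similar genes. Of 22 relatives 16 were tested, 4 of them lower and 1 higher by more than 1 in EGCG replicate 1, and 0 had an unadjusted p under 0.05 in the edgeR test. Csf1r, which belongs to the same receptor family as the PDGF receptors, and Actb, given above, were the most abundant. Twist2, the paralog of Twist1, had 29, 16, 13 and 12 counts. The 4 lower relatives were Actg2, Cdh5, Cdh2 and Lhfpl3. Actg2, another actin, had 55, 1, 1 and 7 counts, with log2 differences between EGCG and vehicle of -4.39 in replicate 1 and 1.18 in replicate 2. Those of Acta2 were -4.07 and 1.23.

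Genes outside the 10 with the most similar profile were sought by the distance of their log2 CPM over the 4 libraries, each gene centred on its own mean, from the mean profile of the 10. The nearest were Kirrel, an adhesion protein of the immunoglobulin family (distance 0.115, with 75, 4, 26 and 50 counts), and Fbn1, the microfibril protein fibrillin 1 (0.128, with 886, 74, 378 and 609). Dbn1, the actin-binding protein drebrin (0.178), Mcc (0.182) and Npr2, a natriuretic peptide receptor (0.202), came next, where the median distance over all genes was 2.70. Among the 10 themselves, Prrx1 was nearest to their mean at 0.289, and 10 genes outside the list were nearer than that. Pdgfra at 3.37 and Cdh11 at 2.90 were the farthest from it. These distances rest on 4 libraries and are a description.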

How the data were processed

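RNA of 4 libraries was measured by strand-specific poly-A sequencing. The authors deposited raw gene counts, whole numbers without normalization, in 1 table per replicate number with a vehicle and an EGCG column. Per the submitters' processing notes, HISAT2 and GRCm38.p6 were used. The counting program, the annotation and the handling of reads with several matches are not given in the sources used here. Columns were tied to libraries by their names and the study's list of processed files, and conditions came from the labels.

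Genes were matched between tables by Ensembl identifier, and 697 and 329 loci without one were left out. Counts were tested in R 4.3.3 with edgeR 4.0.16 (TMM factors 0.954 to 1.03, quasi-likelihood F test, two-sided, treatment only, Benjamini-Hochberg adjustment), on protein-coding genes with at least 10 summed counts. The study used DESeq2, which is an alternative here (version 1.42.0). Thresholds were an unadjusted p under 0.05 and an adjusted p under 0.1. Standard errors are the log2 fold change divided by the square root of F. Log2 CPM used a prior count of 2, and RPKM the gene lengths of the files. With 2 libraries against 2, a two-sided permutation p cannot be below 0.333, so p-values rest on the model. Ratios between single libraries have exact 95% counting intervals, and shares have Wilson intervals. The fits were run on simulated counts, where the treatment comparison held no gap between replicate numbers and only genes with many counts were changed. That run does not show how the fits behave where such a gap exists. Similar transcripts were found with BLAST 2.17.0 (at least 90% identity over 200 nucleotides).

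The 10 genes and the marker lists were chosen with earlier results of these data known. Beside the 10, the genes named were the 2 most abundant of each list, those with an unadjusted p under 0.05 and the 5 nearest in profile; the other list members printed were named after their values were seen, to show which markers were at or near 0 and how far others of a list differed. Alternatives covered the test, the replicate block, normalization, filters, gene classes and leaving out each library.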

Additional observations from a re-analysis of the deposited data

How the results depend on the processing

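For EGCG against vehicle, 95 of 104 estimates of single genes under the alternatives that kept all libraries had the main direction and side of the threshold, and the other 9 passed an unadjusted p under 0.05 where the main test did not. The count of stromal genes at that threshold was 0 in the main test, 1 with DESeq2 or with no filter on low counts (Lhfp), 2 with the likelihood ratio test (Prrx2 and Lhfp) and 0 to 6 when a library was left out. With the replicate number as a block (replicate block) it was 2 in edgeR (Prrx2 and Lhfp, where 1.09% of all genes were lower) and 3 in DESeq2 (also Pdgfrb). All of these stromal genes were lower in EGCG. Among all genes, 61 of 13811 were lower at that threshold in DESeq2 with the block. Without the block, 20 of 13811 were lower with DESeq2, 68 of 13811 with the likelihood ratio test and 13 of 16257 with no filter. Libraries with the same number deviated from their group means together across all genes (r = 0.64). They were also far closer to each other (chi-square per gene of 11.8 and 9.81) than libraries of the same treatment (263.5 and 263.0). Over all genes the libraries thus went in pairs by number, though no label says what the number shares. Across the 10 genes r was -0.24, with 9 of them lower in EGCG replicate 1, so that value does not speak to pairing. The main test keeps the treatment-only design of the study, and the block is given beside it. Over all genes the main count of 16 became 444 with the replicate block, 153 with DESeq2 and the replicate block, 24 with DESeq2, 78 with the likelihood ratio test, 38 with the newer dispersion method, 3 with 10 counts in every library (which kept 4 of the 10 genes), 6 with filterByExpr, 35 with all biotypes and 8 to 131 without single libraries. At an adjusted p under 0.1 the main count of 0 became 1, 1 and 7 with the replicate block, DESeq2 and both. Leaving out libraries turned the direction of Pdgfra (-0.51 to 1.38), Thy1 (-4.36 to 1.00), Acta2 (-3.50 to 0.40) and Twist1 (-2.85 to 0.23). For replicate 2 against replicate 1 the count of 1 (Pdgfra) ranged from 1 to 10 without single libraries, and Pdgfra stayed between -1.78 and -1.22. There the ranges were -1.15 to 2.42 for Prrx1, -2.06 to 6.56 for Cdh11, -2.11 to 3.79 for Tagln, -1.34 to 2.82 for Acta2, -2.71 to 2.83 for Thy1, -0.20 to 2.01 for Pdgfrb, -0.10 to 2.89 for Twist1, -0.93 to 6.52 for Prrx2 and -2.40 to 2.31 for Lhfp. The direction of Prrx1, Cdh11, Tagln and Acta2 turned with no treatment term (-0.27, -1.04, -1.15 and -0.45) and with the newer dispersion method (-0.12, -0.69, -0.70 and -0.21), and that of Tagln also with upper-quartile factors (-0.00853) and with 10 counts in every library (-0.12). The cause was not tested. The 9 genes lower by more than 1 in EGCG replicate 1 were the same under total counts and upper-quartile factors. Depth limits Twist1 and Prrx2 most, with at most 30 and 17 counts in a library.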

Other observations

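Pdgfra, the one gene not lower in EGCG replicate 1, was set beside markers of the oligodendrocyte lineage after its values were seen. Olig1 had 53, 48, 10 and 45 counts in the order Vehicle replicate 1, EGCG replicate 1, Vehicle replicate 2 and EGCG replicate 2, and Olig2 had 17, 30, 8 and 28, against 122, 141, 43 and 95 for Pdgfra. The profile of Olig1 over the libraries was at a distance of 0.684 from that of Pdgfra and 3.72 from the mean of the other 9 genes, and that of Olig2 at 0.751 and 3.87. All 7 oligodendrocyte markers tested were nearer to Pdgfra, as were all 10 microglia markers, so nearness to Pdgfra was not particular to the oligodendrocyte list. Of the 21 other fibroblast genes tested, 18 were nearer to the mean of the other 9. The other 9 were low in EGCG replicate 1, as were these 18 by more than 1 on the log2 scale, so this nearness largely restates that drop.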
